A study of Oryza sativa with 6 samples.

Results

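Dirigent and CASP-like genes were followed in rice roots under cadmium (Cd), with and without Fo10. The members were the rice gene rows whose deposited description names a dirigent protein (55 genes) or a CASP-like protein (40 genes), together with BGIOSGA017380, OsCASP1. These 96 genes, 55 dirigent and 41 in the CASP-like family, were taken from 40745 rice gene rows. Roots of wild-type rice (Oryza sativa) had received 10 µM Cd alone (Cd, 3 libraries) or 10 µM Cd together with 0.5% Fo10 (Fo+Cd, 3 libraries). What Fo10 is was not stated in the labels, and with Cd in both groups the response to the metal cannot be read from them. Whether replicates were grown apart is not stated, so the p-values speak for the spread among these libraries, possibly only technical.

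The Casparian strip is a lignin band in the wall of the root endodermis that closes the path between cells and so forces solutes through the cell membrane. CASP proteins are membrane proteins that mark the place of the strip and gather the wall enzymes there, as worked out in Arabidopsis, and OsCASP1 is needed for a normal strip in rice. CASP-like proteins are the wider family of the CASPs, and most of them have no known part in the strip. Dirigent proteins guide the coupling of phenoxy radicals, the chemistry that makes lignans, and a dirigent protein of Arabidopsis takes part in building the strip.

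The tissue label was checked first. The 6 matched root markers, led by the silicon efflux transporter of the endodermis and exodermis, summed to 722 to 919 TPM (a transcript level scaled to transcript length and to the library's total) in Cd and 802 to 1206 TPM in Fo+Cd. The highest of the 6 root markers averaged 809 TPM, so these sums rest mainly on that gene. The others were SHORT-ROOT 1 and 2 and Scarecrow-like proteins 1, 23 and 29, the genes matched below as endodermis regulators. The 27 shoot markers of photosynthesis summed to 24.5 to 26.9 TPM and 23.6 to 33.2 TPM, and none of them averaged above 6.98 TPM. TPM keeps no record of sequencing depth, so the depth is unknown and intervals from read counts could not be had. In bulk roots, fewer cells of a type and less RNA per cell cannot be told apart.

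Of the 55 dirigent genes, 29 reached 1 TPM in 3 or more libraries and were tested, 12 were listed at 0 in all 6 libraries, and the other 14 averaged at most 1.03 TPM. Expression was concentrated in a few genes: the 5 highest held 70.5% of the family's summed level, and 3 genes averaged above 100 TPM. BGIOSGA024969 led with 305 to 324 TPM over the 6 libraries and held 30.2% of the sum. It ranked 476th by mean level among the 42031 features of the table. BGIOSGA034398 (129 to 184 TPM) and BGIOSGA026142 (107 to 153 TPM) followed with overlapping ranges, so their order is not firm. BGIOSGA034921 (76.2 to 120.1 TPM), BGIOSGA034919 (41.3 to 59.0 TPM), BGIOSGA037181 (25.4 to 64.8 TPM), BGIOSGA024968 (20.3 to 51.7 TPM) and BGIOSGA014148 (22.3 to 38.6 TPM) completed the 8 highest. Among these, BGIOSGA024969 and BGIOSGA034398 did not overlap, nor did BGIOSGA034921 and BGIOSGA034919.

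**Figure D1:**
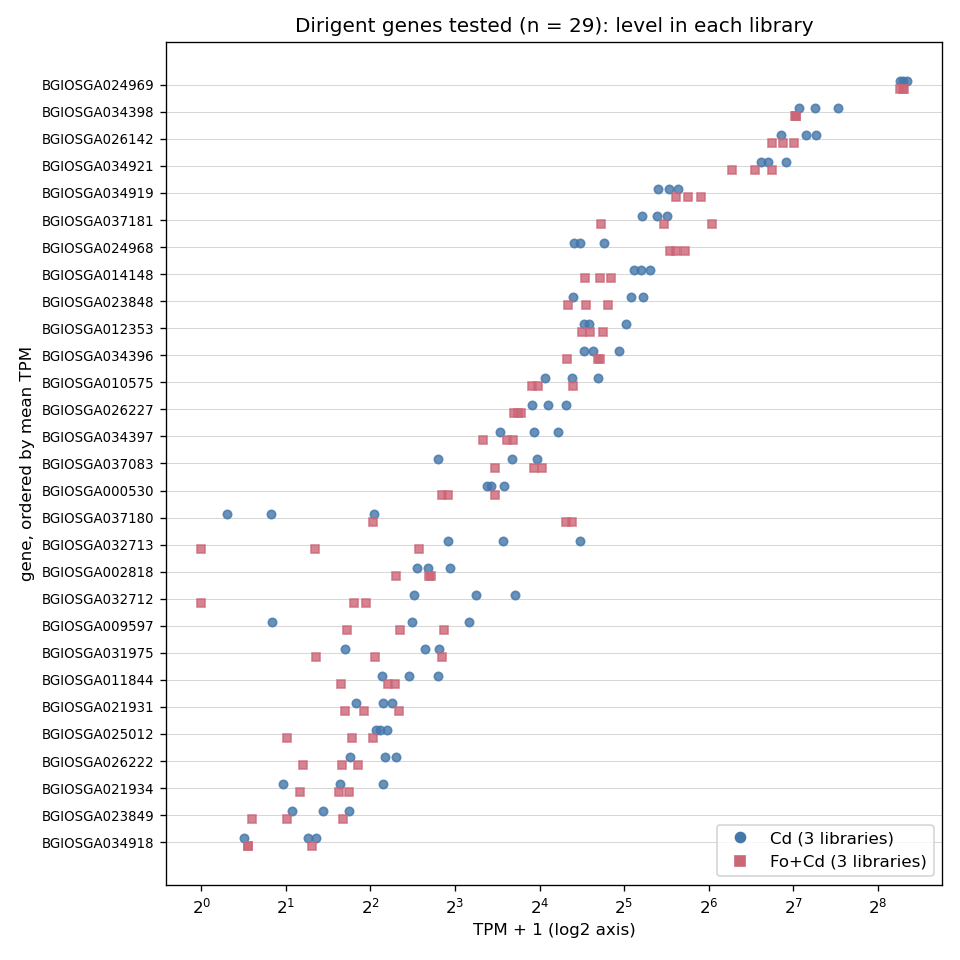
Level of each of the 29 tested dirigent genes (rows, ordered by mean TPM) as TPM + 1 on a log2 axis, with circles for the 3 Cd libraries and squares for the 3 Fo+Cd libraries. BGIOSGA024968 has its squares clear to the right of its circles, while BGIOSGA024969 at the top has both groups together at 305 to 324 TPM.

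Fo10 was compared with Cd alone to ask which of these genes differed in level. Of the 29 tested dirigent genes, 1 rose, none fell and 28 did not pass (limma, Benjamini-Hochberg adjusted p under 0.05 over all 21166 features tested). A share of 2.45% of all features tested was called in either direction, 1.72% higher and 0.723% lower. Among the 4288 tested genes with a database-sourced description, as all 96 members have, 2.19% were called, 1.28% higher and 0.91% lower. The dirigent share of 3.45% rests on 1 gene and lies near that background. At an unadjusted p under 0.05, 2 dirigent genes were higher and 4 lower, against 7.35% higher and 8.06% lower among all features and 7.53% and 7.23% among genes with a sourced description.

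BGIOSGA024968 was the dirigent gene that rose. Its level was 26.1, 21.3 and 20.3 TPM in Cd replicates 1, 2 and 3 and 45.8, 48.0 and 51.7 TPM in Fo+Cd replicates 1, 2 and 3. All 3 Fo+Cd libraries were above all 3 Cd libraries, and the means were 22.6 ± 3.12 and 48.5 ± 3.01 TPM (SD, n = 3 each), a ratio of 2.15. The log2 fold change of TPM + 1 was 1.08 (SE 0.114, 95% interval 0.81 to 1.35, limma adjusted p = 0.00459). It was called in each of the 14 alternative analyses, with adjusted p between 0.00323 and 0.034.

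The identifier next to it, BGIOSGA024969, belongs to the most abundant dirigent gene and gave 305, 313 and 324 TPM in Cd and 307, 315 and 316 TPM in Fo+Cd. The groups overlapped almost fully, with means of 314 ± 9.26 and 313 ± 5.08 TPM (SD, n = 3 each). Its log2 fold change was -0.01 (95% interval -0.19 to 0.18, adjusted p = 0.979).

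**Figure D2:**
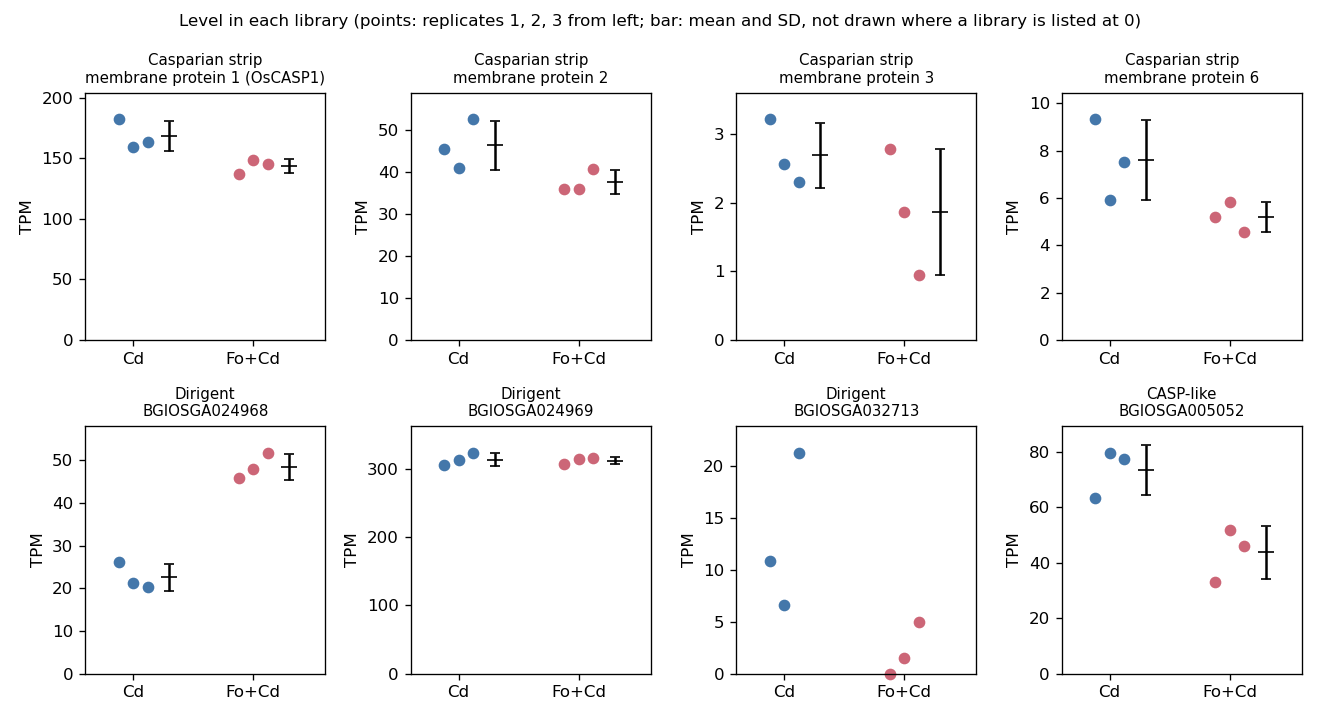
TPM in each library for 4 Casparian strip membrane proteins (top row) and for 3 dirigent genes and 1 CASP-like gene (bottom row), with points for replicates 1, 2 and 3 from left to right and a bar for mean and SD. OsCASP1 lies at 159 to 182 TPM in Cd and 137 to 149 TPM in Fo+Cd, and dirigent BGIOSGA024968 at 20.3 to 26.1 and 45.8 to 51.7 TPM.

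Several dirigent genes had lower values in Fo+Cd but missed the threshold. BGIOSGA014148, the closest to it, was at 35.6, 33.7 and 38.6 TPM in Cd and 25.3, 27.7 and 22.3 TPM in Fo+Cd. Its groups did not overlap, and the log2 fold change was -0.51 (SE 0.106, 95% interval -0.76 to -0.26, limma adjusted p = 0.0645). BGIOSGA026227 was at 18.9, 16.2 and 14.1 TPM in Cd and 12.7, 12.4 and 12.0 TPM under Fo+Cd (log2 fold change -0.37, limma adjusted p = 0.216). Its Fo+Cd libraries lay close together, all under the lowest Cd library.

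The largest negative fold changes belonged to 2 genes with consecutive identifiers. BGIOSGA032712 was at 8.52, 4.74 and 12.1 TPM in Cd and was listed at 0, 2.85 and 2.51 TPM in Fo+Cd. BGIOSGA032713 was at 10.8, 6.58 and 21.3 TPM in Cd and listed at 0, 1.54 and 4.94 TPM in Fo+Cd. Both were highest in Cd replicate 3, lowest of the Cd libraries in Cd replicate 2, and listed at 0 in Fo+Cd replicate 1. Their log2 fold changes were -1.91 (SE 0.581) and -2.35 (SE 0.711), with limma adjusted p of 0.191 and 0.192, so the differences did not pass despite their size. Reads may be shared between near-identical copies, so values of single members with similar sequence are uncertain.

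BGIOSGA025012 showed the third-largest negative fold change, with 3.31, 3.18 and 3.60 TPM in Cd and 3.08, 1.02 and 2.43 TPM under Fo+Cd (log2 fold change -0.52, limma adjusted p = 0.41). The abundant BGIOSGA034398 was at 152, 133 and 184 TPM in Cd and 130, 129 and 131 TPM under Fo+Cd (log2 fold change -0.25, limma adjusted p = 0.396). In both genes the groups did not overlap, but only just. Fo+Cd replicate 1 of BGIOSGA025012 lay just under the lowest Cd library. So did Fo+Cd replicate 3 of BGIOSGA034398, at 131 against 133 TPM. BGIOSGA026142 (136 ± 19.8 and 117 ± 10.7 TPM, SD, n = 3 each) and BGIOSGA034921 (107 ± 11.7 and 91.9 ± 15.2 TPM) had overlapping groups.

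Among positive fold changes, that of BGIOSGA037180 was the largest and the least even. It was at 0.23, 3.12 and 0.77 TPM in Cd and 19.9, 3.07 and 18.9 TPM in Fo+Cd. Fo+Cd replicate 2 was thus at the level of Cd replicate 2, and the other two Fo+Cd libraries were far above every Cd library. The log2 fold change of 2.52 had an SE of 0.761 and a limma adjusted p of 0.192. The next identifier, BGIOSGA037181, was also lowest in Fo+Cd replicate 2, at 25.4 TPM, with 64.8 and 43.3 TPM in Fo+Cd replicates 1 and 3 and 36.1 to 44.6 TPM in Cd. BGIOSGA037083 (log2 fold change 0.32, adjusted p = 0.673) and BGIOSGA034919 (0.24, adjusted p = 0.356) were the remaining 2 of the 4 largest positive values.

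The dirigent genes as a list leaned to lower values. A fold change below 0 was seen in 23 of 29, or 79.3%, against 49.6% of all features and 46% of genes with a sourced description. The median log2 fold change was -0.24, against 0.00 over all features tested, and it was -0.19 over the 43 members above 0 in at least 1 library. It ranged from -0.37 without Cd replicate 2 to -0.17 without Cd replicate 3. Groups did not overlap in 7 genes, 6 lower and 1 higher; over all features 10% were lower and 11.3% higher without overlap, and over genes with a sourced description 9.28% and 12.4%. The summed level of all 55 genes was 1067, 1005 and 1153 TPM in Cd and 1004, 966 and 1040 TPM in Fo+Cd, so that the groups overlapped.

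Single libraries moved with this lean. Of the 29 tested dirigent genes, 14 (48.3%) had their highest value in Cd replicate 3, against 15.0% of all features. In Cd replicate 2 it was 1 gene (3.45%), against 16.2% of all features. The lowest value lay in Fo+Cd replicate 1 in 8 genes (27.6%), in replicate 2 in 6 (20.7%) and in replicate 3 in 7 (24.1%). Over all features these shares were 19.4%, 21.1% and 14.6%, so that of replicate 2 lay near the background. Without Cd replicate 3 the median was still below 0, as given above.

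Of the 41 genes of the CASP-like family, 31 passed the filter, 6 were listed at 0 in all libraries, and the other 4 averaged at most 0.898 TPM. The 5 highest held 67.6% of the summed level. BGIOSGA005050, a CASP-like gene with no subfamily in its description, led with 309 to 434 TPM, 32.3% of the sum and rank 366 in the table. OsCASP1 was next with 137 to 182 TPM, clear of BGIOSGA005050 but only just above the range of BGIOSGA025609. Its range overlapped that of BLE3, yet within every single library OsCASP1 was above both BLE3 and BGIOSGA025609. BGIOSGA025609 (73.5 to 137.1 TPM), BLE3 (BGIOSGA018445, 68.8 to 139.2 TPM), CASP-like protein 1C1-2 (BGIOSGA003097, 56.7 to 103.8 TPM), BGIOSGA005052 (33.2 to 79.7 TPM) and CASP-like protein 5B1 (BGIOSGA000495, 38.0 to 61.3 TPM) followed, each overlapping its neighbours among these 5. CASP-like protein 5B2 (BGIOSGA019975, 24.5 to 34.8 TPM) came next and did not overlap 5B1.

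**Figure D3:**
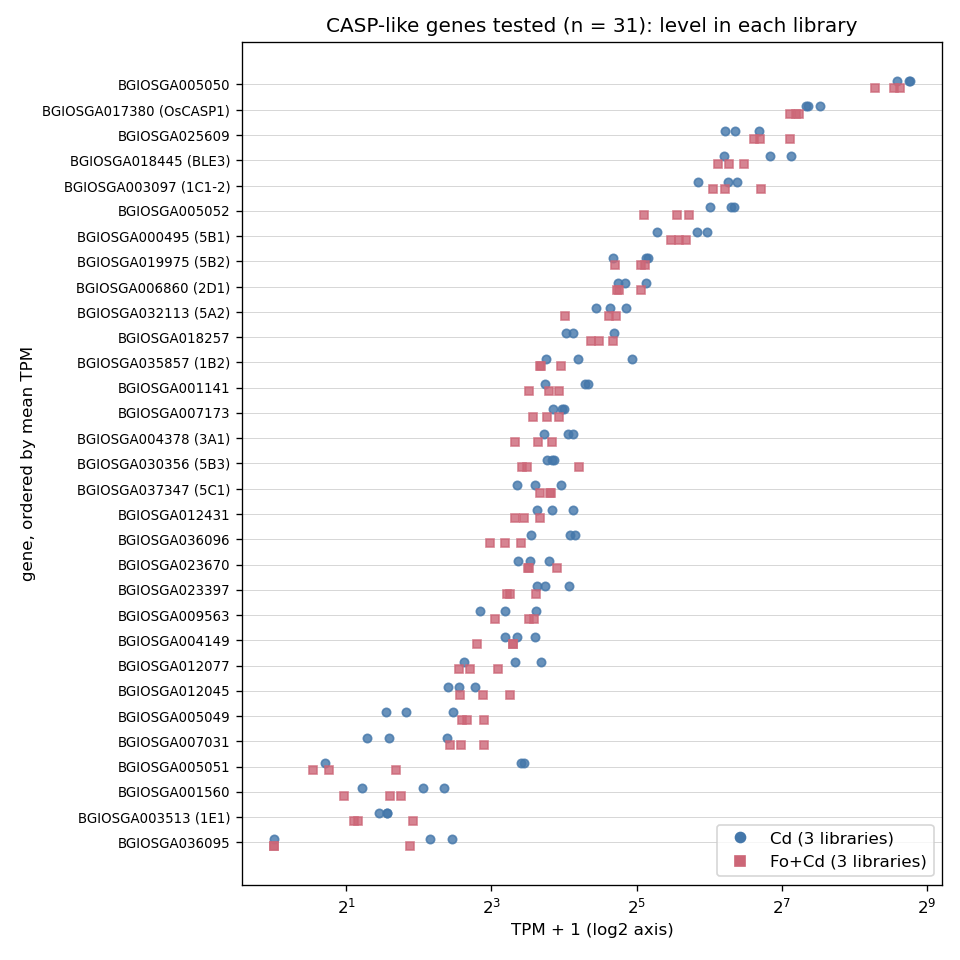
Level of each of the 31 tested genes of the CASP-like family (rows, ordered by mean TPM, with the subfamily number where the description gives one) as TPM + 1 on a log2 axis, with circles for Cd and squares for Fo+Cd, 3 libraries each. BGIOSGA005050 and OsCASP1 stand highest, and BGIOSGA005051 shows 2 Cd libraries far above the third.

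None of the 31 CASP-like family genes rose or fell in limma at an adjusted p under 0.05, beside 2.45% of all features called. At an unadjusted p under 0.05, 2 were higher and 4 (12.9%) lower, against 7.35% higher and 8.06% lower among all features. OsCASP1 gave 182, 159 and 164 TPM in Cd and 137, 149 and 146 TPM in Fo+Cd. Every Fo+Cd library was below every Cd library, and the means were 169 ± 12.2 and 144 ± 5.96 TPM (SD, n = 3 each), a difference of -14.6%. The log2 fold change was -0.22 (SE 0.0894, 95% interval -0.43 to -0.01, limma adjusted p = 0.296). An exact two-sided permutation test gave p = 0.1, the smallest value that 3 against 3 libraries allow.

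The table holds 3 further genes described as Casparian strip membrane proteins, which the family rule did not take. Casparian strip membrane protein 2 (BGIOSGA027833) was at 45.3, 41.0 and 52.5 TPM in Cd and 35.8, 35.9 and 40.8 TPM in Fo+Cd. Its groups were only just apart (log2 fold change -0.29, SE 0.113, limma adjusted p = 0.28). Casparian strip membrane protein 6 (BGIOSGA016544) was at 9.32, 5.93 and 7.51 TPM in Cd and 5.21, 5.81 and 4.55 TPM under Fo+Cd (log2 fold change -0.46, SE 0.176, limma adjusted p = 0.278). Its groups also did not overlap, while those of Casparian strip membrane protein 3 (BGIOSGA022588) did, at 3.22, 2.57 and 2.30 TPM in Cd and 2.78, 1.87 and 0.95 TPM in Fo+Cd (adjusted p = 0.501).

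Together with OsCASP1, these 4 genes had fold changes below 0 in each case, 3 with an unadjusted p under 0.05 and 0 called by limma. Over all features, 49.6% had a fold change below 0, 8.06% were lower at an unadjusted p under 0.05 and 2.45% were called. Casparian strip membrane proteins 2 and 3 were named after their values were seen. The summed level of the 4 genes was 240, 209 and 226 TPM in Cd and 181, 193 and 192 TPM in Fo+Cd, of which OsCASP1 made up 75.6%. The sign of each of the 4 fold changes was the same in every alternative analysis that gave a value.

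Other members of the CASP-like family came nearer to the threshold than OsCASP1. BGIOSGA005052 was at 63.3, 79.7 and 77.6 TPM in Cd and 33.2, 52.0 and 46.1 TPM in Fo+Cd, with no overlap (log2 fold change -0.75, SE 0.176, 95% interval -1.17 to -0.34, limma adjusted p = 0.0901). BGIOSGA036096 was at 16.7, 10.7 and 16.0 TPM in Cd and 8.06, 9.60 and 6.90 TPM under Fo+Cd (log2 fold change -0.74, SE 0.193, limma adjusted p = 0.122). BGIOSGA023397, with 15.7, 11.3 and 12.3 TPM in Cd against 8.51, 11.3 and 8.26 TPM in Fo+Cd, had groups that barely separated (adjusted p = 0.263).

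The identifiers BGIOSGA005049 to BGIOSGA005052 form a run of 4 CASP-like genes whose values differed in direction. BGIOSGA005049 was higher in Fo+Cd, at 5.04, 6.43 and 5.36 TPM against 2.54, 1.93 and 4.54 TPM in Cd (log2 fold change 0.77, limma adjusted p = 0.195). The abundant BGIOSGA005050 was at 429, 383 and 434 TPM in Cd and 309, 395 and 372 TPM in Fo+Cd, with overlap (log2 fold change -0.22, limma adjusted p = 0.442). BGIOSGA005051 was at 9.62, 0.63 and 9.89 TPM in Cd and 0.45, 0.69 and 2.23 TPM in Fo+Cd. Its Cd replicate 2 lay with the Fo+Cd libraries (log2 fold change -1.52, SE 0.795, limma adjusted p = 0.428), and without that library the log2 fold change was -2.43 (adjusted p = 0.0234).

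BGIOSGA036095 was also low in Cd replicate 2, with 3.44, 0 and 4.51 TPM listed in Cd and 0, 0 and 2.69 TPM in Fo+Cd. Its groups overlapped (log2 fold change -0.91, SE 0.813, limma adjusted p = 0.646), and without Cd replicate 2 its adjusted p was 0.228. Of the higher members, BGIOSGA007031 was at 2.02, 4.23 and 1.43 TPM in Cd and 4.98, 4.40 and 6.48 TPM under Fo+Cd (log2 fold change 0.88, limma adjusted p = 0.214). Without Cd replicate 2, whose value lay next to the Fo+Cd libraries, its adjusted p was 0.0384. Leaving out the same library brought BGIOSGA036096 to 0.0341. Over all features, 726 were called without Cd replicate 2, against 518 with all libraries and 189 to 310 without any other library. Without it, the log2 fold change of BGIOSGA007031 also moved, to 1.20. Why the adjusted p of BGIOSGA005051, BGIOSGA007031 and BGIOSGA036096 was lower without this library was not tested. BGIOSGA025609 (85.3 ± 14.5 and 112 ± 21.7 TPM, SD, n = 3 each) and BGIOSGA012045 (4.99 ± 0.791 and 6.61 ± 1.81 TPM) had overlapping groups.

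**Figure D4:**
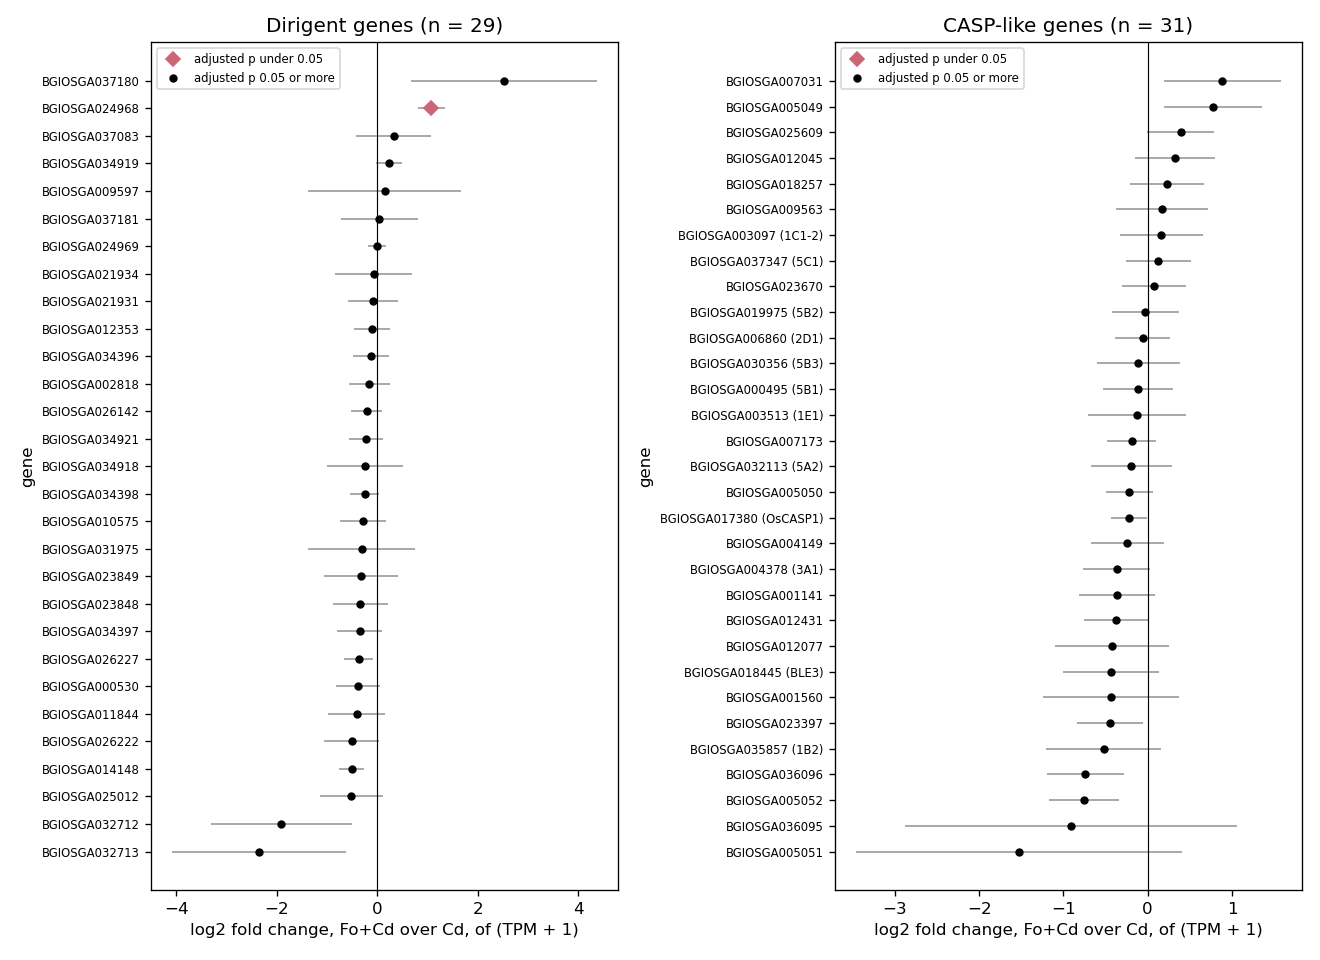
Log2 fold change of TPM + 1, Fo+Cd over Cd, with its 95% interval from limma (unadjusted) for the 29 tested dirigent genes (left) and the 31 tested genes of the CASP-like family (right). BGIOSGA024968, the diamond at 1.08, is the called gene, and most other points lie to the left of 0.

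None of the members with a named subfamily was called. CASP-like subfamily 5 had 5 genes, all tested, with log2 fold changes from -0.19 to 0.13 and a mean summed level of 132 TPM in Cd and 123 TPM in Fo+Cd. In subfamily 1, 3 of 5 genes were tested, with log2 fold changes from -0.52 to 0.16 that differed in sign, and the mean sum was 93.2 TPM in Cd and 95.2 TPM in Fo+Cd. The 1 gene of subfamily 3 was at -0.37, with overlapping groups. BLE3, known as a brassinolide-enhanced gene of rice, was at 72.4, 139.2 and 113.6 TPM in Cd and 68.8, 88.0 and 75.9 TPM in Fo+Cd. Its Cd libraries were spread nearly as widely as the groups together (log2 fold change -0.43, SE 0.237, limma adjusted p = 0.442).

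Over the CASP-like family a fold change below 0 was seen in 22 of 31 genes, or 71.0%, against 49.6% of all features. The median log2 fold change was -0.19, and it lay between -0.25 and -0.12 when each library was left out in turn. The summed level of all 41 genes was 1277, 1265 and 1278 TPM in Cd and 999, 1257 and 1123 TPM in Fo+Cd. All Fo+Cd sums were below the Cd sums, with Fo+Cd replicate 2 only just below and replicate 1 lowest. Fo+Cd replicate 1 was also the lowest library in 13 of 31 genes (41.9%), against 19.4% of all features. The ratio of the mean sums was 0.885 with all libraries and 0.935 without Fo+Cd replicate 1.

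**Figure D5:**
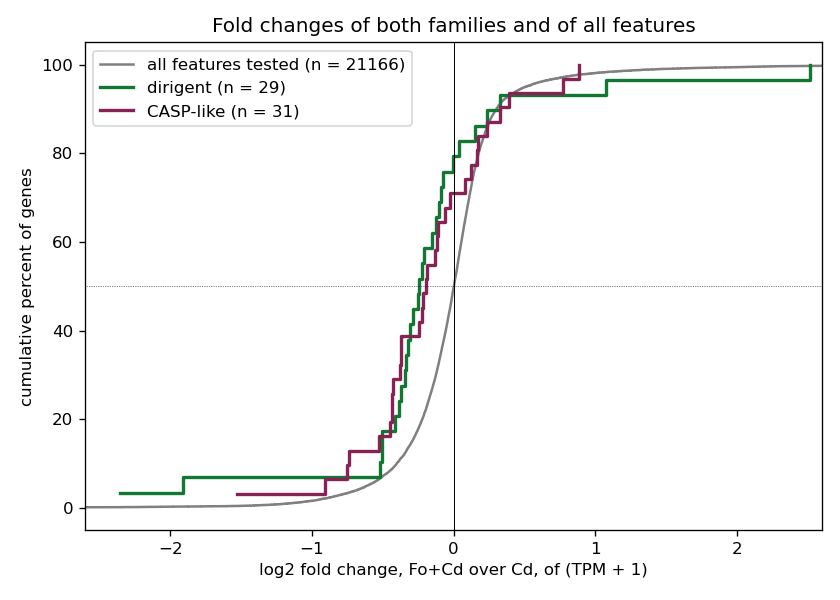
Cumulative percent of genes (vertical axis) by log2 fold change of TPM + 1, Fo+Cd over Cd (horizontal axis), for 29 dirigent genes, 31 CASP-like family genes and all 21166 features tested, cut at both ends of the axis. The curves of both families cross the dotted 50% line at -0.24 and -0.19, left of the curve of all features.

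In both families the intervals were narrow enough to bound many members. The 95% interval of the log2 fold change stayed within a change of 2-fold in either direction for 18 of 29 dirigent genes and 22 of 31 CASP-like family genes. It included 0 for 23 and 25 genes, which does not show that these genes did not differ.

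Other barrier genes were found by patterns in the descriptions and gene names. Among 18 tested genes of suberin and cutin monomer synthesis, 1 rose and 1 fell, 11.1% against 2.45% of all features. At an unadjusted limma p under 0.05, 4 were higher and 4 (22.2%) lower, against 7.35% higher and 8.06% lower among all features. A fatty acyl-CoA reductase (BGIOSGA024420), of the enzyme class that makes the fatty alcohols of suberin and wax, rose from 6.64, 8.40 and 7.76 TPM to 41.5, 35.8 and 32.2 TPM (log2 fold change 2.12, SE 0.13, limma adjusted p = 0.000445). A gene described as similar to glycerol-3-phosphate acyltransferase 5 (BGIOSGA019979), an enzyme that in Arabidopsis joins suberin monomers to glycerol, fell from 29.7, 31.4 and 37.9 TPM to 11.6, 16.9 and 16.7 TPM (log2 fold change -1.09, SE 0.166, limma adjusted p = 0.0204). That call did not survive the removal of Cd replicate 3 (adjusted p = 0.0759) or of Fo+Cd replicate 3 (0.0608), and the description names no database. The list's median log2 fold change was 0.05.

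Of 11 tested genes matched to monolignol synthesis, the making of lignin building blocks, 2 rose, none fell and 9 did not pass, with a median of 0.09. The called share was 18.2%, against 2.45% of all features. COMTL2 (BGIOSGA015753), described as like caffeate O-methyltransferase, rose from 0.98, 0.38 and 1.56 TPM to 24.3, 32.2 and 23.5 TPM (limma adjusted p = 0.000483). CAD7 (BGIOSGA017101), of the cinnamyl alcohol dehydrogenase class, rose from 0.70, 0.35 and 0.65 TPM to 2.92, 4.56 and 3.95 TPM (limma adjusted p = 0.0095). CAD7 passed the filter through the Fo+Cd libraries alone. COMTL2 reached 1 TPM in those libraries and otherwise only in Cd replicate 3, so it too needed them to pass. Both called genes were thus kept by the group in which they were high. Their share is therefore no support for a rise of the list. Neither description names a database.

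Of 8 tested laccases, copper enzymes that can oxidise monolignols, 2 rose and 1 fell, with a median of -0.22. The called share was 37.5%, against 2.45% of all features. LAC19 (BGIOSGA021910) rose from 5.33, 7.85 and 6.18 TPM to 34.7, 32.0 and 29.4 TPM (limma adjusted p = 0.000576). BGIOSGA019397 fell from 36.4 ± 4.02 to 22.0 ± 0.373 TPM and BGIOSGA019394 rose from 14.4 ± 1.32 to 23.3 ± 3.16 TPM (SD, n = 3 each). The call of BGIOSGA019394 was lost on removing any single library (adjusted p 0.0592 to 0.174). For BGIOSGA019397 this held for each library except Cd replicate 2 (0.0568 to 0.0806).

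No call was made among the few genes matched as endodermis regulators or as makers of the oxidant. The tested regulators were SHORT-ROOT 1 and 2 and Scarecrow-like proteins 1 and 23. No gene described as SCARECROW itself or as MYB36 was matched. Of 4 tested endodermis regulators 0 were called by limma, also at an unadjusted p under 0.05, with a median of -0.09, and the smallest p belonged to SHR2 (BGIOSGA010480, 3.37 ± 0.88 and 2.72 ± 0.551 TPM, SD, n = 3 each, adjusted p = 0.655). The 1 respiratory burst oxidase found, RBOHB (BGIOSGA001663), whose class makes superoxide in the wall, was at 48.0 ± 2.98 and 44.3 ± 7.59 TPM (adjusted p = 0.696).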

How the data were processed

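The authors deposited 1 table of TPM values for 6 libraries of poly(A) RNA, recognised as TPM from the values, since each library sums to 96.3% to 96.7% of 1000000. What aligned and counted the reads, and on which genome build, was not given in the sources used here. A further 2 columns of the authors' group means were not used. Features reaching 1 TPM in 3 or more libraries were tested on the log2(TPM + 1) scale. Fo+Cd was compared with Cd by limma 3.58.1 (R 4.3.3) with a mean-variance trend, robust moderation and no covariates, with Benjamini-Hochberg adjustment over 21166 features and a threshold of 0.05. The fit was tested on simulated data with independent noise, which held only large changes in genes away from the low end. That test does not bear on small fold changes, on genes near 1 TPM or on shifts shared within a library. Fold changes on this scale understate those of genes near 1 TPM. Figures and tables used Python 3.11.15 with pandas 2.3.3.

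Members and lists were chosen with earlier results of these data known. Genes were named by rule: OsCASP1; in each family the called members, the 8 highest, the 4 largest positive and negative fold changes and those with unadjusted p under 0.05; of the other lists, called members or else the smallest p. Casparian strip membrane proteins 2 and 3 and BGIOSGA031974 lie outside the rule and were chosen after their values were seen. The patterns also matched 4 cyclotransferases and 1 DNA repair gene by letters inside a word; these were dropped. The suberin pattern took in acyltransferases of membrane lipids. The monolignol pattern took in genes described only as like an enzyme of that path, COMTL2 among them. None of the member identifiers (0 of 96) matched the RefSeq table, so no positions or sequences are given.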

Additional observations from a re-analysis of the deposited data

How the results depend on the processing

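The fit was repeated with pseudocounts of 0.1 and 0.5, no filter on low values, a filter at 5 TPM, 2 other scalings, no trend or robust setting, a replicate block, and without each library. BGIOSGA024968 was called in all 14. The median log2 fold change stayed below 0 in both families, from -0.37 to -0.17 (dirigent, lowest without Cd replicate 2) and -0.25 to -0.12 (CASP-like) when a library was left out. OsCASP1 kept its sign and was called in none of the 14 (log2 fold change -0.26 to -0.17, adjusted p 0.244 to 0.648). The number of features called was 518 with all libraries. It was 189 to 726 without one library, 726 being the number without Cd replicate 2. With the replicate block it was 353, of which 298 were among the 518. Without the filter 1 dirigent gene was called lower, BGIOSGA031974, at 1.26, 1.13 and 0.70 TPM in Cd and listed at 0 in all Fo+Cd libraries (adjusted p = 0.0224). Over all features tested, the deviations of same-numbered libraries from their group means had correlations of -0.0325, 0.0847 and 0.0734. These values cannot tell whether the numbers mark a batch that acts on some genes, and the labels do not say. With the replicate block 1 CASP-like gene, BGIOSGA005052, was called lower (adjusted p = 0.0362); without Cd replicate 2, 1 was called higher and 2 lower, and without a library in general 0 to 1 and 0 to 2. Without one library, suberin synthesis had 1 to 3 calls (2 with all libraries), monolignol synthesis 1 to 2 (2) and laccases 1 to 2 (3). Monolignol synthesis had 1 with the filter at 5 TPM and 1 with the replicate block, and laccases had 1 with the block. CAD7 was not among the genes tested at 5 TPM or without an Fo+Cd library. With the replicate block CAD7 just missed the threshold (limma adjusted p = 0.05001), while COMTL2 was called. The cause of the other changes was not tested. The sign turned in at least 1 alternative for 9 of 29 dirigent and 10 of 31 CASP-like family genes, none of them called. Among the genes named by rule these were 6, given here with their range of log2 fold changes without one library: BGIOSGA000495 (-0.32 to 0.021), BGIOSGA003097 (-0.029 to 0.30), BGIOSGA019975 (-0.18 to 0.10), BGIOSGA024969 (-0.026 to 0.016, and 0.0093 with upper-quartile scaling), BGIOSGA037083 (-0.018 to 0.57) and BGIOSGA037181 (-0.27 to 0.39). Because TPM holds no depth, the smallest difference that these libraries could show for genes near 1 TPM is unknown.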
